A study of Homo sapiens with 18 samples.

Results

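Spliceosomal small nuclear RNA (snRNA) genes and the U7 gene were followed in HEK293T cells, a human embryonic kidney line, that carried fusion genes of the leukaemia translocation t(4;11). The members were all rows of the gene count table whose symbol starts with RNU or RNVU, does not end in P and whose description does not name a pseudogene. This rule, which used no count, chose 33 of 54425 genes. Accessibility was measured by ATAC-seq, in which a transposase cuts open DNA, and the reads were counted per gene. The AF4-MLL cells carried an inducible AF4-MLL construct, the MLL-AF4 cells an inducible MLL-AF4 construct, and the co-expression cells a constitutive MLL-AF4 construct with an inducible AF4-MLL construct (KMT2A encodes MLL and AFF1 encodes AF4). Inducible constructs were switched on by doxycycline (1 µg/ml for 48 h) and then switched off. Each setting was sampled on day 3 and day 28 in libraries labelled as 3 biological replicates, 18 libraries in 6 groups. By the study's methods the constructs were Sleeping Beauty vectors, and the AF4-MLL vector of the co-expression cells was transfected transiently and was lost as the cells divided. No cells without a construct are among these libraries, so every comparison is between settings or between days.

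Small nuclear RNAs are short, abundant RNAs that form, with proteins, the particles of the spliceosome. U1 and U2 recognise the ends of an intron, U4, U5 and U6 join as a combined particle for catalysis, U11, U4ATAC and U6ATAC do the same work on a rare class of introns, and U7 trims the ends of histone messages. Most of these genes are read by RNA polymerase II and the U6 and U6ATAC genes by RNA polymerase III, from compact promoters just upstream, and the elongation factor ELL acts on them in the little elongation complex. AF4 family proteins hold ELL in another elongation complex.

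The 22 snRNA genes with enough counts for a test had counts in all 6 groups, and 0 of them passed the test in any of the 12 contrasts. Over 9 pairwise comparisons all of their 198 log2 differences lay between -0.997 and 0.901. The largest of these belonged to RNU4-1, a U4 gene, and the next to RNVU1-3, RNU6-1 and other genes with few counts. The comparisons follow after the genes and their levels.

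The libraries held from 442159 to 3539937 counts (median 1254820), and the 33 genes together held from 393 to 1224 counts a library (median 778). Mitochondrial genes took from 32.7% to 68.5% of a library, with means for AF4-MLL, for MLL-AF4 and for co-expression cells of 38.3%, 44.0% and 39.4% on day 3 and 65.3%, 65.0% and 65.5% on day 28, so the day and the mitochondrial share cannot be told apart. Counts at the kidney markers PAX2, LHX1 and SALL1 had medians of 20, 14.5 and 6 a library. Those at the blood markers PTPRC and CD3E had medians of 17 and 2, and the liver marker ALB had 2.5, so counts over whole genes do not tell the cell type by these markers.

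By type the rule found 4 U1 genes (RNU1-1 to RNU1-4), 10 U1 variants (RNVU1), 1 U2 gene, 2 U4 genes, 5 U5 genes, 5 U6 genes, and single genes for U11, U4ATAC, U6ATAC and U7. RNU105B and RNU105C, which are described as small nucleolar, also met the rule. The U12 gene has no row under the symbol RNU12 and is not analysed here. U1 genes held 28.6% of the 13455 member counts, U1 variants 26.6%, U5 15.7%, U2 12.9%, U4 7.25%, U6 4.18%, U4ATAC 3.57%, U6ATAC 1.03% and U11 0.201%. U1 genes and their variants thus gave the most counts and were also the most numerous. Of the members 18 lie on chromosome 1, and 3 each on chromosomes 12 and 15. According to RefSeq (GRCh38.p14), 22 members overlap no other gene. Near-identical copies can share reads, and how such reads were counted is not given in the sources used here, so counts of single copies are uncertain.

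Most snRNA genes stood out among genes of their length. Over 18 libraries the members had a median total of 329 counts, whereas the 1510 other rows with an RNU or RNVU symbol, named pseudogenes (U pseudogenes) by symbol or description, had a median of 3 and the 2192 other genes of 63 to 210 bases also had a median of 3. A total of 360 or more was found in 15 of 33 members (45.5%), in 3 of 1510 U pseudogenes (0.199%) and in 11 of 2192 other short genes (0.502%). Among the 60 nuclear genes with a RefSeq length in this range that had most counts, 19 were members and 4 were U pseudogenes. These counts describe the table and were not tested. The highest pseudogenes were RNU1-27P with 812 counts, RNU1-28P with 665 and RNU1-122P with 441, all of the U1 type. RefSeq classes 1 of the 1510, RNU2-63P, as an snRNA and 8 had no match.

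**Figure D1:**
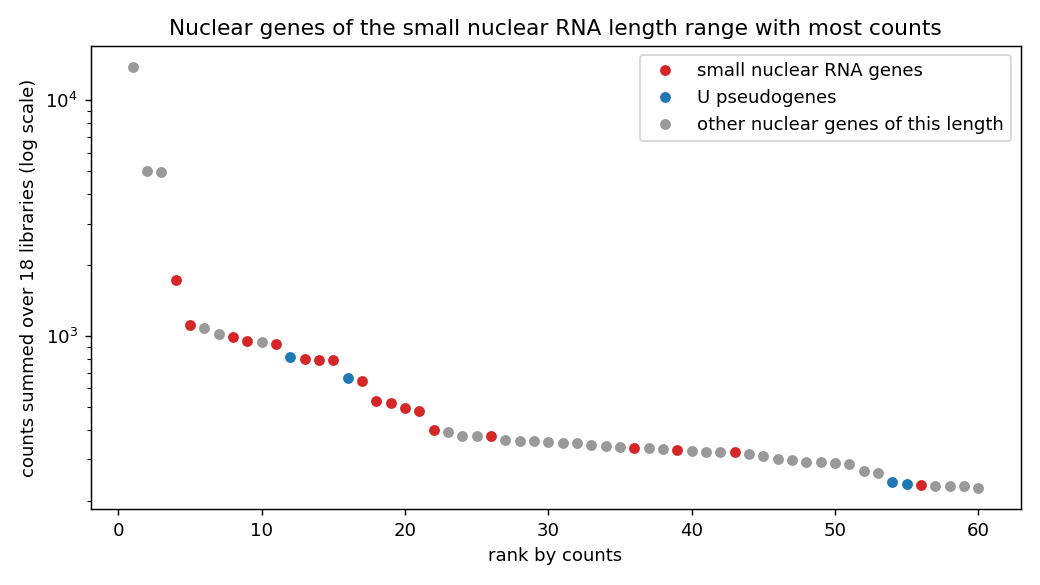
Counts summed over 18 libraries (y axis, log scale) against rank (x axis) for the 60 nuclear genes of 63 to 210 bases with most counts. Red points are snRNA genes, blue points U pseudogenes and grey points other genes. RNU2-1, at 1736 counts, has rank 4, behind MTATP8P1, RNA5-8SN4 and MTATP8P2.

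Levels are given in CPM, counts scaled to a common library total, with library sizes scaled by the trimmed mean of M-values (TMM), as mean ± SD of 3 libraries. U1 base-pairs with the start of the intron. Its 4 gene copies lie on the short arm of chromosome 1, at chr1:16514122-16514285 (RNU1-1), chr1:16666785-16666948 (RNU1-3), chr1:16740516-16740679 (RNU1-4) and chr1:16895980-16896143 (RNU1-2), each 164 bases long and free of other annotated genes. RNU1-1 had the most counts of these and of all snRNA genes but RNU2-1. In AF4-MLL cells the libraries of RNU1-1 read 47.1, 47.7 and 45.5 on day 3 (mean 46.8 ± 1.17) and 43.6, 44.2 and 36.97 on day 28 (mean 41.6 ± 4.02). In MLL-AF4 cells RNU1-1 read 59.1, 45.7 and 52.02 on day 3 (mean 52.3 ± 6.74) and 39.6, 43.5 and 59.1 on day 28 (mean 47.4 ± 10.3). In co-expression cells RNU1-1 read 42.7, 60.4 and 51.2 on day 3 (mean 51.4 ± 8.88) and 40.4, 44.2 and 37.2 on day 28 (mean 40.6 ± 3.496). In the 9 comparisons of days within a setting or settings within a day, the groups overlapped at RNU1-1 except for the days in AF4-MLL cells, where all 3 day 3 libraries lay above all 3 day 28 libraries. Such groups without overlap were found at 14.0% of all tested genes in that comparison and at 16.0% over the 9. In AF4-MLL cells the libraries of RNU1-4 read 43.8, 41.9 and 40.1 on day 3 (mean 41.95 ± 1.88) and 37.8, 39.8 and 41.2 on day 28 (mean 39.6 ± 1.704). In MLL-AF4 cells RNU1-4 read 50.2, 31.7 and 42.8 on day 3 (mean 41.6 ± 9.31) and 46.1, 34.03 and 33.1 on day 28 (mean 37.8 ± 7.27). In co-expression cells RNU1-4 read 37.3, 40.3 and 39.6 on day 3 (mean 39.1 ± 1.55) and 52.6, 36.1 and 49.2 on day 28 (mean 45.98 ± 8.72). No group of RNU1-4 stood apart on either day. RNU1-2 and RNU1-3 had lower totals. RNU1-2 stood at 42.1 ± 4.06 (AF4-MLL), 46.5 ± 6.71 (MLL-AF4) and 36.8 ± 3.18 (co-expression) on day 3 and at 40.4 ± 9.68, 32.5 ± 7.504 and 40.2 ± 5.53 on day 28. RNU1-3 stood at 34.7 ± 3.23 (AF4-MLL), 30.4 ± 8.79 (MLL-AF4) and 38.4 ± 7.04 (co-expression) on day 3 and at 30.9 ± 3.96, 30.3 ± 5.55 and 32.4 ± 3.09 on day 28. Of all U1 counts RNU1-1 held 28.9% (95% Wilson interval 27.4 to 30.3), RNU1-4 25.7% (24.3 to 27.1), RNU1-2 24.9% (23.5 to 26.3) and RNU1-3 20.6% (19.4 to 21.9). These intervals cover counting error only. The share of RNU1-3 was thus below that of each other copy by more than counting error, and in single libraries it ran from 12.7% to 24.7%.

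The U1 variants are genes on chromosome 1 that the count table describes as variant U1, and their sequences were not compared with U1 here. Of the 10, 6 passed the filter on low counts. RNVU1-15, RNVU1-7, RNVU1-18 and RNVU1-6 had totals of 921, 800, 790 and 529, where the U1 genes had from 792 to 1109, while RNVU1-4 and RNVU1-3 had 336 and 172, and RNVU1-1, RNVU1-2, RNVU1-17 and RNVU1-19 had 12, 12, 4 and 1. RNVU1-4 overlaps the long non-coding RNA gene LINC00623, and RNVU1-3 the pseudogene PDE4DIPP6. RefSeq classes RNVU1-2 as a pseudogene. RNVU1-15 stood at 43.8 ± 5.73 (AF4-MLL), 43.3 ± 6.55 (MLL-AF4) and 37.9 ± 3.24 (co-expression) on day 3 and at 35.2 ± 4.94, 36.98 ± 5.15 and 36.5 ± 2.86 on day 28. RNVU1-7 stood at 32.7 ± 4.69 (AF4-MLL), 35.4 ± 6.57 (MLL-AF4) and 33.6 ± 2.34 (co-expression) on day 3 and at 33.3 ± 10.5, 34.1 ± 3.25 and 34.5 ± 10.8 on day 28. RNVU1-18 stood at 34.2 ± 5.598 (AF4-MLL), 32.99 ± 8.65 (MLL-AF4) and 33.8 ± 2.44 (co-expression) on day 3 and at 32.2 ± 4.897, 32.3 ± 7.35 and 29.4 ± 7.06 on day 28. At RNVU1-7 and RNVU1-18 the highest group mean was 1.08 and 1.16 times the lowest, but within groups the libraries of RNVU1-7 scattered at 2.03 times the variance of counting error. RNVU1-6 stood at 22.5 ± 5.62 (AF4-MLL), 24.98 ± 6.402 (MLL-AF4) and 20.4 ± 1.29 (co-expression) on day 3 and at 25.02 ± 1.54, 20.4 ± 1.76 and 20.05 ± 1.53 on day 28. RNVU1-4 stood at 16.1 ± 4.36 (AF4-MLL), 18.8 ± 8.47 (MLL-AF4) and 11.6 ± 5.004 (co-expression) on day 3 and at 14.2 ± 0.228, 12.4 ± 2.83 and 12.8 ± 1.896 on day 28. RNVU1-3 stood at 8.24 ± 1.89 (AF4-MLL), 8.47 ± 4.11 (MLL-AF4) and 4.37 ± 1.27 (co-expression) on day 3 and at 7.67 ± 1.895, 8.23 ± 3.76 and 7.22 ± 2.56 on day 28. RNVU1-3 and RNVU1-4 had their lowest group means in co-expression cells on day 3.

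U2 base-pairs with the branch point of the intron, and its genes form a tandem array on chromosome 17 of which RNU2-1 (chr17:43233790-43233977) is the annotated copy. RNU2-1 had the highest count of the snRNA genes in total. In AF4-MLL cells the libraries of RNU2-1 read 71.8, 78.1 and 86.3 on day 3 (mean 78.7 ± 7.28) and 67.7, 80.7 and 59.99 on day 28 (mean 69.5 ± 10.4). In MLL-AF4 cells RNU2-1 read 66.9, 100.2 and 62.4 on day 3 (mean 76.5 ± 20.6) and 70.9, 66.9 and 76.97 on day 28 (mean 71.6 ± 5.05). In co-expression cells RNU2-1 read 78.7, 70.8 and 70.4 on day 3 (mean 73.3 ± 4.66) and 62.05, 75.3 and 65.1 on day 28 (mean 67.5 ± 6.95). MLL-AF4 replicate 2 of day 3 gave the highest value, and the groups overlapped in all comparisons of RNU2-1 between days or settings.

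U4 pairs with U6 until the spliceosome is activated. Its genes RNU4-2 (chr12:120291759-120291903) and RNU4-1 (chr12:120293093-120293237) are neighbours, 1189 bases apart on chromosome 12, and both overlap the annotated span of SIRT4. RNU4-2 held 66.3% of U4 counts (95% Wilson interval 63.3 to 69.2) and RNU4-1 33.7% (30.8 to 36.7), so the copies differed by more than counting error. RNU4-2 stood at 25.4 ± 5.88 (AF4-MLL), 23.7 ± 5.61 (MLL-AF4) and 27.05 ± 2.61 (co-expression) on day 3 and at 27.97 ± 3.75, 27.8 ± 0.949 and 24.95 ± 6.703 on day 28. RNU4-1 is given by library because its differences had the smallest p-values among the members, so it was chosen after its values were seen. In AF4-MLL cells the libraries of RNU4-1 read 9.32, 20.2 and 15.4 on day 3 (mean 14.99 ± 5.48) and 16.9, 15.5 and 11.2 on day 28 (mean 14.5 ± 2.999). In MLL-AF4 cells RNU4-1 read 17.9, 13.95 and 19.6 on day 3 (mean 17.2 ± 2.91) and 10.7, 8.37 and 23.3 on day 28 (mean 14.1 ± 8.01). In co-expression cells RNU4-1 read 8.67, 8.204 and 8.88 on day 3 (mean 8.58 ± 0.346) and 20.7, 12.5 and 11.96 on day 28 (mean 15.03 ± 4.8997). All 3 co-expression libraries of day 3, with 13, 11 and 13 counts, lay within a narrow band at the low end of RNU4-1. MLL-AF4 replicate 2 of day 28, at 8.37, lay in this band too, and AF4-MLL replicate 1 of day 3, at 9.32, just above it. The narrowness of the band was not tested. The libraries of MLL-AF4 cells on day 28 were spread more widely, with replicate 3 high.

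U5 aligns the exons for ligation. Of its genes RNU5A-1 (chr15:65296051-65296167) and RNU5B-1 (chr15:65304677-65304793) are neighbours on chromosome 15, and RNU5D-1 (chr1:44731069-44731170), RNU5E-1 (chr1:11908152-11908272) and RNU5F-1 (chr1:44721785-44721902) lie on chromosome 1. All 5 passed the filter, and they shared U5 counts rather evenly, from 15.2% (RNU5D-1; 95% Wilson interval 13.8 to 16.8) to 24.6% (RNU5B-1; 22.8 to 26.5). RNU5F-1 overlaps ARMH1, and the other U5 genes overlap no annotated gene. RNU5A-1 stood at 17.4 ± 1.39 (AF4-MLL), 22.7 ± 7.47 (MLL-AF4) and 20.3 ± 3.16 (co-expression) on day 3 and at 22.2 ± 3.902, 17.4 ± 2.75 and 21.8 ± 4.31 on day 28. RNU5B-1 stood at 20.4 ± 5.03 (AF4-MLL), 21.2 ± 8.504 (MLL-AF4) and 20.8 ± 5.48 (co-expression) on day 3 and at 23.1 ± 4.16, 23.4 ± 0.906 and 19.7 ± 1.78 on day 28. RNU5E-1 stood at 14.6 ± 3.97 (AF4-MLL), 18.02 ± 0.846 (MLL-AF4) and 16.1 ± 2.69 (co-expression) on day 3 and at 15.5 ± 0.534, 14.7 ± 3.44 and 18.3 ± 4.88 on day 28. These 3 genes had a highest group mean 1.19 to 1.3002 times the lowest. RNU5F-1 stood at 17.1 ± 1.298 (AF4-MLL), 13.6 ± 3.68 (MLL-AF4) and 15.8 ± 5.15 (co-expression) on day 3 and at 19.5 ± 5.81, 12.6 ± 7.4997 and 14.6 ± 7.36 on day 28. RNU5D-1 stood at 12.02 ± 1.51 (AF4-MLL), 11.4 ± 0.203 (MLL-AF4) and 11.8 ± 1.66 (co-expression) on day 3 and at 16.8 ± 1.94, 15.8 ± 2.09 and 11.2 ± 1.805 on day 28. RNU5F-1 was the most scattered of all tested members within groups, at 2.63 times the variance of counting error, and RNU5D-1 the least, at 0.263 times.

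U6 forms the catalytic centre of the spliceosome. Its genes had few counts, and RNU6-2 and RNU6-1 alone passed the filter. RNU6-2 stood at 8.11 ± 4.01 (AF4-MLL), 11.3 ± 3.71 (MLL-AF4) and 10.4 ± 2.77 (co-expression) on day 3 and at 10.03 ± 1.004, 9.18 ± 3.696 and 10.4 ± 2.68 on day 28. RNU6-1 stood at 4.81 ± 2.55 (AF4-MLL), 5.23 ± 3.16 (MLL-AF4) and 6.31 ± 1.07 (co-expression) on day 3 and at 4.39 ± 0.188, 3.96 ± 3.17 and 2.96 ± 2.82 on day 28. RNU6-1 had 0 counts in co-expression replicate 3 of day 28. A count of 0 was taken to leave room for about 3 expected counts, which is not an absolute limit. RNU6-7, RNU6-8 and RNU6-9 were not tested, with totals of 88, 68 and 61 counts.

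The rare introns are served by U11, U4ATAC and U6ATAC. RNU4ATAC (chr2:121530880-121531009) lies inside CLASP1 on chromosome 2 and had 480 counts, more than RNU4-1. It is given by library after its values were seen, for its small p-values. In AF4-MLL cells the libraries of RNU4ATAC read 18.1, 13.02 and 16.2 on day 3 (mean 15.8 ± 2.56) and 23.4, 25.4 and 16.04 on day 28 (mean 21.6 ± 4.94). In MLL-AF4 cells RNU4ATAC read 22.3, 26.6 and 21.96 on day 3 (mean 23.6 ± 2.605) and 15.7, 18.4 and 13.4 on day 28 (mean 15.8 ± 2.496). In co-expression cells RNU4ATAC read 17.997, 20.1 and 15.7 on day 3 (mean 17.9 ± 2.21) and 23.5, 24.3 and 25.3 on day 28 (mean 24.3 ± 0.878). At RNU4ATAC the 3 MLL-AF4 libraries lay lower on day 28 than on day 3, while in co-expression cells the 3 libraries lay higher on day 28. The days did not overlap at 20.4% of all tested genes in MLL-AF4 cells and at 14.2% in co-expression cells. RNU6ATAC stood at 5.61 ± 3.32 (AF4-MLL), 5.12 ± 2.44 (MLL-AF4) and 6.89 ± 2.69 (co-expression) on day 3 and at 5.22 ± 2.92, 4.65 ± 0.646 and 5.29 ± 1.94 on day 28. RNU11 had 27 counts and was not tested. RNU7-1 (chr12:6943816-6943878), the U7 gene, had 1 count in all 18 libraries together and overlaps C12orf57. RNU105C and RNU105B had 5 and 2. For these genes no difference was detectable at this depth. The 11 members not tested held 281 of the 13455 member counts and at most 10 in one library.

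**Figure D2:**
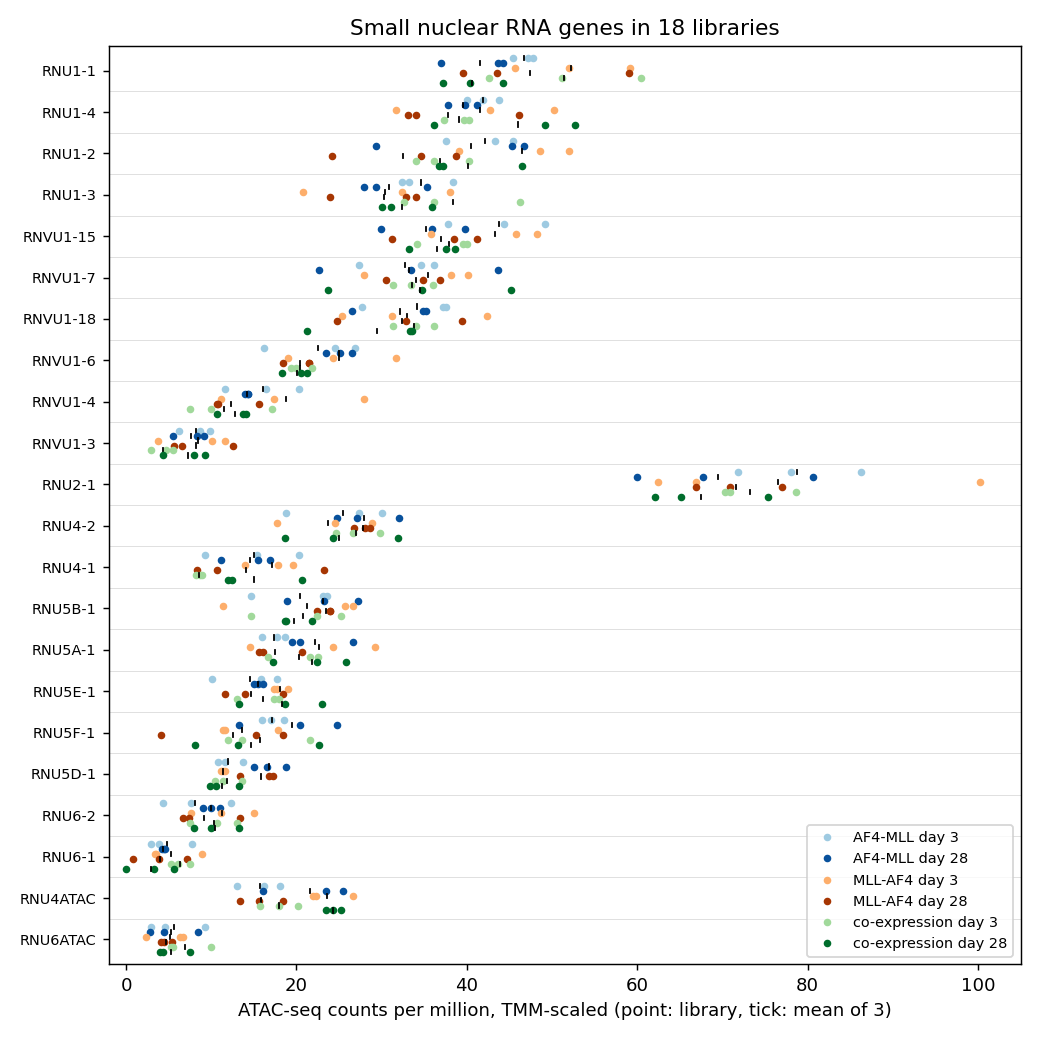
TMM-scaled CPM (x axis) of the 22 tested snRNA genes (rows) in 18 libraries, with 1 point a library, coloured by group, and a tick at each group's mean of 3. RNU2-1 runs from 59.99 to 100.2 and RNU1-1 from 37.0 to 60.4, and the 6 groups overlap at most genes.

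Per kilobase of RefSeq length, RNU2-1 had the highest level, 388 TMM-scaled CPM per kilobase over the 6 group means, with RNU1-1 at 285, RNU1-4 at 250, RNU1-2 at 242 and RNVU1-15 at 236 next. At the low end of the 22 tested members stood RNVU1-3 at 45.8, RNU6ATAC at 43.4 and RNU6-1 at 43.1. Reads of other copies of the U2 array can be counted at RNU2-1, and the counted region is not given. These levels thus rank rows of the count table, not accessibility per gene copy. In all 21 pairs of neighbours in this order the ranges over libraries overlapped, and in 0 pairs was one gene higher in all 18 libraries. RNU2-1 was higher than RNU1-1 in 17 of 18 libraries and RNVU1-4 higher than RNVU1-3 in 17, whereas RNU1-4 and RNU1-2, or RNU1-2 and RNVU1-15, kept their order in 10 only. Within groups, the tested members scattered at 1.23 times the variance of counting error on average, from 0.263 to 2.63 times. Their highest group mean was 1.08 to 2.13 times the lowest (median 1.29), with RNU6-1 at the upper end.

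The first question was whether accessibility at these genes differed between day 28, long after the switch-off of inducible constructs, and day 3. In bulk libraries a difference in all cells and one in some of the cells cannot be told apart. In AF4-MLL cells edgeR called 0 of 22 members at an adjusted p under 0.05, against 0.606% of all 17660 genes tested. At an unadjusted p under 0.05 there were 0 members, against 9.29% of all genes. DESeq2, which withholds an adjusted p from genes of low mean count, called 0 of the 13 members to which it gave one. The median log2 difference of the members was -0.03 (all genes 0.00), with 11 below 0, against 50.4% of all genes. All 5 U5 genes had log2 values above 0 here, from 0.01 for RNU5E-1 to 0.44 for RNU5D-1, and all 4 U1 genes below 0, from -0.18 for RNU1-3 to -0.08 for RNU1-2. The libraries of the days did not overlap at 3 members (RNU5A-1, RNU5D-1 and RNU1-1), against 14.0% of all genes.

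In MLL-AF4 cells 0 of 22 members were called, against 2.87% of all genes, and DESeq2 called 0 of the 13 with an adjusted p. Of the members 18 had a log2 value below 0 against 49.6% of all genes, and their median was -0.17 (all genes 0.00). The members are not independent observations. Of the 22, 10 are U1 genes or variants that can share reads, and all were measured in the same libraries. Their common direction was not tested. RNU1-2 and RNU4ATAC had an unadjusted p under 0.05, against 15.8% of all genes, both lower on day 28. The difference was -0.49 on the log2 scale (SE 0.19, adjusted p = 0.159) for RNU1-2. It was -0.54 on the log2 scale (SE 0.26, adjusted p = 0.298) for RNU4ATAC. The libraries of the days did not overlap at 3 members, these 2 and RNU5D-1, against 20.4% of all genes. RNU5D-1 was higher on day 28 (log2 0.49), and none of the 3 passed the test. RNU2-1 had a log2 difference of -0.09 (SE 0.15) while the tested genes of its chromosome 17 had a median of 0.25.

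In co-expression cells 0 of 22 were called, against 0.606% of all genes, and 0 of the 2 with an adjusted p in DESeq2. The median was -0.05 (all genes 0.00), with 14 below 0, against 50.2% of all genes. At an unadjusted p under 0.05 stood 2 members, RNU4-1 higher and RNU1-1 lower on day 28, against 9.51% of all genes. RNU4-1 differed by 0.90 on the log2 scale (SE 0.30, adjusted p = 0.189). Without co-expression replicate 1 of day 28, the highest library, this value was 0.51 (adjusted p = 0.779). RNU1-1 differed by -0.31 on the log2 scale (SE 0.16, adjusted p = 0.512). Without co-expression replicate 2 of day 3 this was -0.19. RNU4-2, the neighbour of RNU4-1, had a log2 difference of -0.01 (SE 0.20). The libraries of the days did not overlap at 2 members, RNU4-1 and RNU4ATAC, against 14.2% of all genes. Scaled by library size alone, mitochondrial counts included, 21, 19 and 20 members were called in the 3 settings, all lower on day 28, where the median of all tested genes shifted by -1.06, -0.87 and -1.07.

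**Figure D3:**
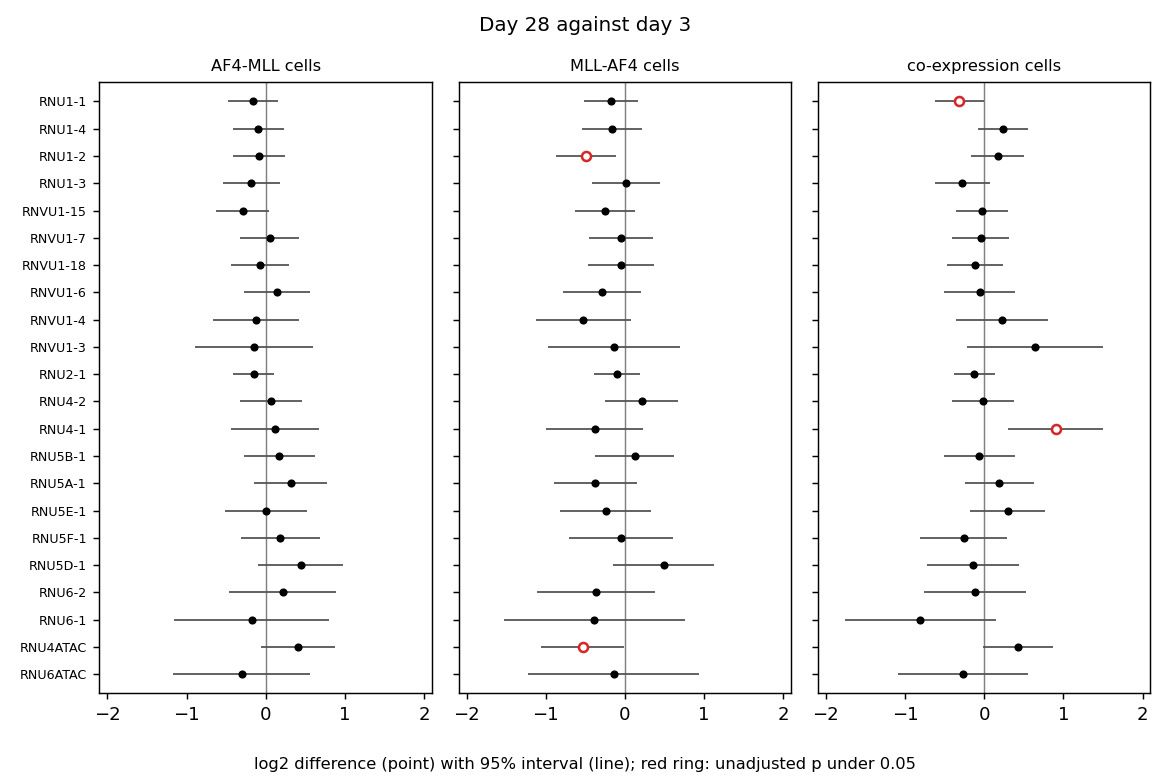
Log2 difference between day 28 and day 3 (x axis) with its 95% interval for the 22 tested snRNA genes (rows) in the 3 settings (panels). Red rings mark an unadjusted p under 0.05: RNU1-2 and RNU4ATAC in MLL-AF4 cells, and RNU4-1 and RNU1-1 in co-expression cells.

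The second question was whether settings differed on one day. Settings on the same day share libraries between comparisons. On day 3, AF4-MLL against MLL-AF4 cells gave 0 called members (0.142% of all genes) and 0 with an unadjusted p under 0.05 (9.55% of all genes). DESeq2 called 0 of 4. The median of the members was -0.06 (all genes 0.00), with the lowest value at RNU4ATAC, -0.51 (SE 0.27, adjusted p = 0.539), and the highest at RNU6ATAC, 0.34 (SE 0.52). The groups did not overlap at 1 member, RNU4ATAC, against 14.0% of all genes.

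Co-expression against MLL-AF4 cells on day 3 again gave 0 called members by edgeR, against 1.81% of all genes, and 0 of 18 by DESeq2. The members' median was -0.09 (all genes 0.00), with 15 below 0, against 50.3% of all genes. RNU4-1, RNVU1-4 and RNVU1-3 had an unadjusted p under 0.05, all lower in co-expression cells, against 14.5% of all genes. RNU4-1 differed by -0.997 on the log2 scale (SE 0.34, adjusted p = 0.100), the lowest adjusted p of all member tests. The groups did not overlap at 2 members, RNU4-1 and RNU4ATAC, against 19.0% of all genes. RNVU1-4 differed by -0.69 on the log2 scale (SE 0.31, adjusted p = 0.260) and RNVU1-3 by -0.95 on the log2 scale (SE 0.47, adjusted p = 0.326), with libraries that overlapped at both. The RNVU1-4 value was -0.31 without MLL-AF4 replicate 2, -0.45 without co-expression replicate 3 and -1.06 without co-expression replicate 2, all of day 3.

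Co-expression against AF4-MLL cells on day 3 gave 0 called members (1.28% of all genes), 0 of 13 by DESeq2, and 2 with an unadjusted p under 0.05 (12.3% of all genes). These were RNVU1-3, -0.91 on the log2 scale (SE 0.43, adjusted p = 0.359), and RNU4-1, -0.65 on the log2 scale (SE 0.33, adjusted p = 0.404). Both were again lower in co-expression cells, and the groups did not overlap at these 2 members, against 16.5% of all genes. Without AF4-MLL replicate 1 of day 3 the RNU4-1 value was -0.99. They share the day 3 co-expression libraries with the preceding comparison. The members' median was 0.00 (all genes 0.01).

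On day 28, AF4-MLL against MLL-AF4 cells gave 0 called members (0.0793% of all genes) by edgeR and 0 of 22 by DESeq2. RNU5F-1 alone had an unadjusted p under 0.05, against 8.26% of all genes, and was 0.56 on the log2 scale (SE 0.26, adjusted p = 0.566). Without a single low library, MLL-AF4 replicate 1 of day 28, with 4.12 TMM-scaled CPM, this value was 0.19 (adjusted p = 0.926), without MLL-AF4 replicate 2 it was 1.05 (adjusted p = 0.374), and without AF4-MLL replicate 1 it was 0.37. Of the members 16 were above 0, against 50.3% of all genes (median 0.07, all genes 0.00). At 1, RNVU1-6, the groups did not overlap, against 13.4% of all genes.

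Co-expression against MLL-AF4 cells on day 28 gave 0 called members (1.17% of all genes), 0 of 14 by DESeq2, and 2 with an unadjusted p under 0.05 (11.8% of all genes). RNU4ATAC was higher in co-expression cells, 0.57 on the log2 scale (SE 0.23, adjusted p = 0.262). RNU5D-1 was lower, -0.57 on the log2 scale (SE 0.28, adjusted p = 0.402). The groups did not overlap at 3 members, these 2 and RNU5B-1 (log2 -0.24), against 16.0% of all genes, and none of the 3 passed the test. The median of the members was 0.00 (all genes 0.01), with 11 below 0, against 48.7% of all genes.

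Co-expression against AF4-MLL cells on day 28 gave 0 called members (1.69% of all genes), 0 of 14 by DESeq2, and again 2 with an unadjusted p under 0.05 (12.7% of all genes), both U5 genes and both lower in co-expression cells. RNU5D-1 was -0.64 on the log2 scale (SE 0.27, adjusted p = 0.260), and RNU5F-1 was -0.59 on the log2 scale (SE 0.26, adjusted p = 0.290). Without co-expression replicate 2 of day 28 the RNU5F-1 value was -0.31. The groups did not overlap at 2 members, RNU5D-1 and RNVU1-6, against 16.8% of all genes. The median of the members was -0.04 (all genes 0.01). At the U5 genes on chromosome 15, RNU5A-1 and RNU5B-1, log2 differences between co-expression and AF4-MLL cells were 0.18 and 0.02 on day 3 and 0.06 and -0.21 on day 28, where the tested genes of that chromosome had medians of 0.30 and 0.29.

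**Figure D4:**
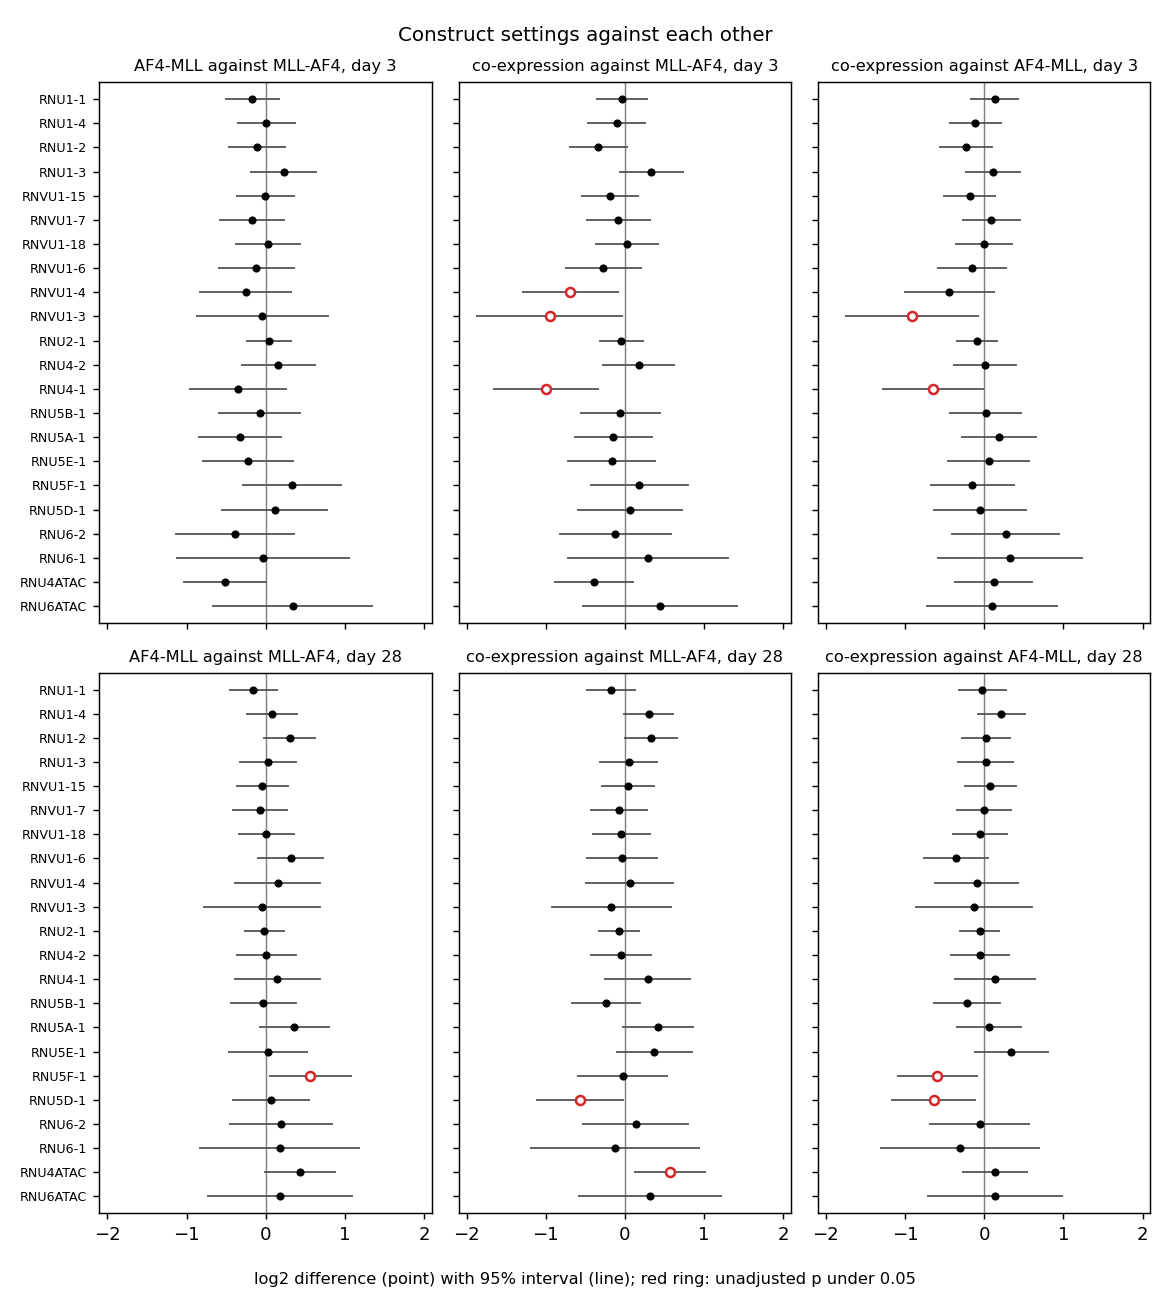
Log2 difference between settings (x axis) with its 95% interval for the 22 tested snRNA genes (rows) on day 3 (upper panels) and day 28 (lower panels). The lowest point is RNU4-1 at -0.997 in co-expression against MLL-AF4 cells on day 3, and red rings mark an unadjusted p under 0.05.

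The third question was whether the change from day 3 to day 28 differed between settings, tested as an interaction. For AF4-MLL against MLL-AF4 cells 0 members were called (0.317% of all genes) and 1, RNU4ATAC, had an unadjusted p under 0.05 (9.75% of all genes), with 0.95 on the log2 scale (SE 0.35, adjusted p = 0.299). For co-expression against MLL-AF4 cells 0 were called (0.232% of all genes) and 3 had an unadjusted p under 0.05 (9.73% of all genes). RNU4-1 gave 1.29 on the log2 scale (SE 0.44, adjusted p = 0.227). RNU4ATAC gave 0.96 on the log2 scale (SE 0.35, adjusted p = 0.267). RNU1-2 gave 0.66 on the log2 scale (SE 0.26, adjusted p = 0.325). For RNU4-1 this ran from 0.90 without co-expression replicate 1 to 1.78 without MLL-AF4 replicate 3, both of day 28. For co-expression against AF4-MLL cells 0 members and 0% of all genes were called, and 0 members had an unadjusted p under 0.05 (5.05% of all genes). DESeq2 called 0 members in all 3 interactions, of 11, 8 and 22 with an adjusted p.

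In all, edgeR called 0 of 264 member tests over 12 contrasts, with a lowest adjusted p of 0.100, and 18 had an unadjusted p under 0.05. DESeq2 gave an adjusted p in 154 of these tests, called 0, and had 8 of 264 at an unadjusted p under 0.05. In edgeR's 9 pairwise comparisons 14 of 198 tests had an unadjusted p under 0.05 (7.07%), against 11.5% over all genes, and in 19 (9.60%) the groups did not overlap, against 16.0%. Under the study's thresholds (unadjusted p under 0.05, absolute log2 over 1 and a mean count over 2) 0 members were selected in these 9 comparisons. Those thresholds selected 1.14%, 2.54% and 1.18% of all genes between the days (AF4-MLL, then MLL-AF4, then co-expression). They selected 1.51%, 2.77% and 1.79% between settings on day 3, in the order above, and 0.544%, 1.29% and 1.36% on day 28. The 95% interval of the difference lay within -1 and 1 in 163 of 198 pairwise tests. Its limits over the 9 comparisons ran from -0.41 to 0.33 for RNU2-1, from -0.62 to 0.44 for RNU1-1 and from -0.54 to 0.62 for RNU1-4, while for RNU4-1 they ran from -1.66 to 1.497 and for RNU6-1 from -1.76 to 1.32. A change of 1 on the log2 scale would thus lie outside the intervals for RNU2-1, RNU1-1 and RNU1-4, and within them for RNU4-1 and RNU6-1. The intervals draw much of their spread from the other tested genes and can be too narrow for scattered members.

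Since near-identical copies can share reads, counts were also summed by type, as values with no test. Over the 9 pairwise comparisons, 16.0% of all tested single genes had groups without overlap on the TMM scale. That share was not worked out for sums of genes or for the nuclear scale, so a lack of overlap there was not read as a difference. Not every sum without overlap is named below. The 4 U1 genes summed to 166 ± 6.31 (AF4-MLL), 171 ± 8.80 (MLL-AF4) and 166 ± 20.4 (co-expression) TMM-scaled CPM on day 3 and to 152 ± 12.3, 148 ± 2.69 and 159 ± 10.8 on day 28. Between days the log2 ratios of these sums were -0.12, -0.21 and -0.06, and the libraries of the days did not overlap in MLL-AF4 cells. On the nuclear scale defined next they were -0.34, -0.38 and -0.27 with no overlap in any of the 3 settings. The median tested gene shifted on that scale by -0.22, -0.17 and -0.21. The U1 variants summed to 159 ± 20.6, 164 ± 5.31 and 143 ± 3.07 on day 3 and to 149 ± 6.63, 145 ± 11.6 and 141 ± 5.96 on day 28, and on the nuclear scale their log2 ratios between days were -0.32, -0.35 and -0.23, again with no overlap. On day 3 the sum of co-expression cells lay below that of MLL-AF4 cells by a log2 ratio of -0.21, with no overlap. U5 genes summed to 81.6 ± 6.36, 86.9 ± 5.18 and 84.7 ± 11.4 on day 3 and to 97.1 ± 2.83, 83.95 ± 7.997 and 85.8 ± 4.62 on day 28. On the TMM scale every day 28 library of AF4-MLL cells lay above all day 28 libraries of the other settings and above its own day 3, while on the nuclear scale the days overlapped (log2 ratio 0.03), as did AF4-MLL and MLL-AF4 cells on day 28 (0.20), and co-expression and AF4-MLL cells on day 28 did not (-0.18). U4 sums ranged over group means from 35.6 to 42.5, with groups that overlapped in all 9 comparisons, and the log2 ratio of co-expression to MLL-AF4 cells on day 3 was -0.20. U6 genes summed to 28.4 ± 3.34 in co-expression cells on day 3 and to 20.8 ± 0.932 on day 28, a log2 ratio of -0.45 with no overlap, while their other group means lay between 21.9 and 23.5.

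All 33 members summed to 571 ± 12.2, 593 ± 14.5 and 556 ± 24.5 TMM-scaled CPM on day 3 and to 562 ± 20.1, 537 ± 26.1 and 545 ± 26.3 on day 28 (log2 ratios -0.02, -0.15 and -0.03). As CPM of nuclear counts only, with mitochondrial genes left out (the nuclear scale), the libraries ran from 1275 to 1347 (AF4-MLL), 1313 to 1350 (MLL-AF4) and 1212 to 1323 (co-expression) on day 3. They ran from 1090 to 1126, 1024 to 1142 and 1061 to 1096 on day 28, below day 3 in every setting. The log2 ratios on this scale were -0.24, -0.32 and -0.25. On the same scale the median tested gene was also lower, by log2 ratios of -0.22, -0.17 and -0.21, and pseudogenes of mitochondrial genes took 5.77%, 7.16% and 6.05% of nuclear counts on day 3 and 17.28%, 17.01% and 17.44% on day 28. Their part in these ratios was not tested.

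**Figure D5:**
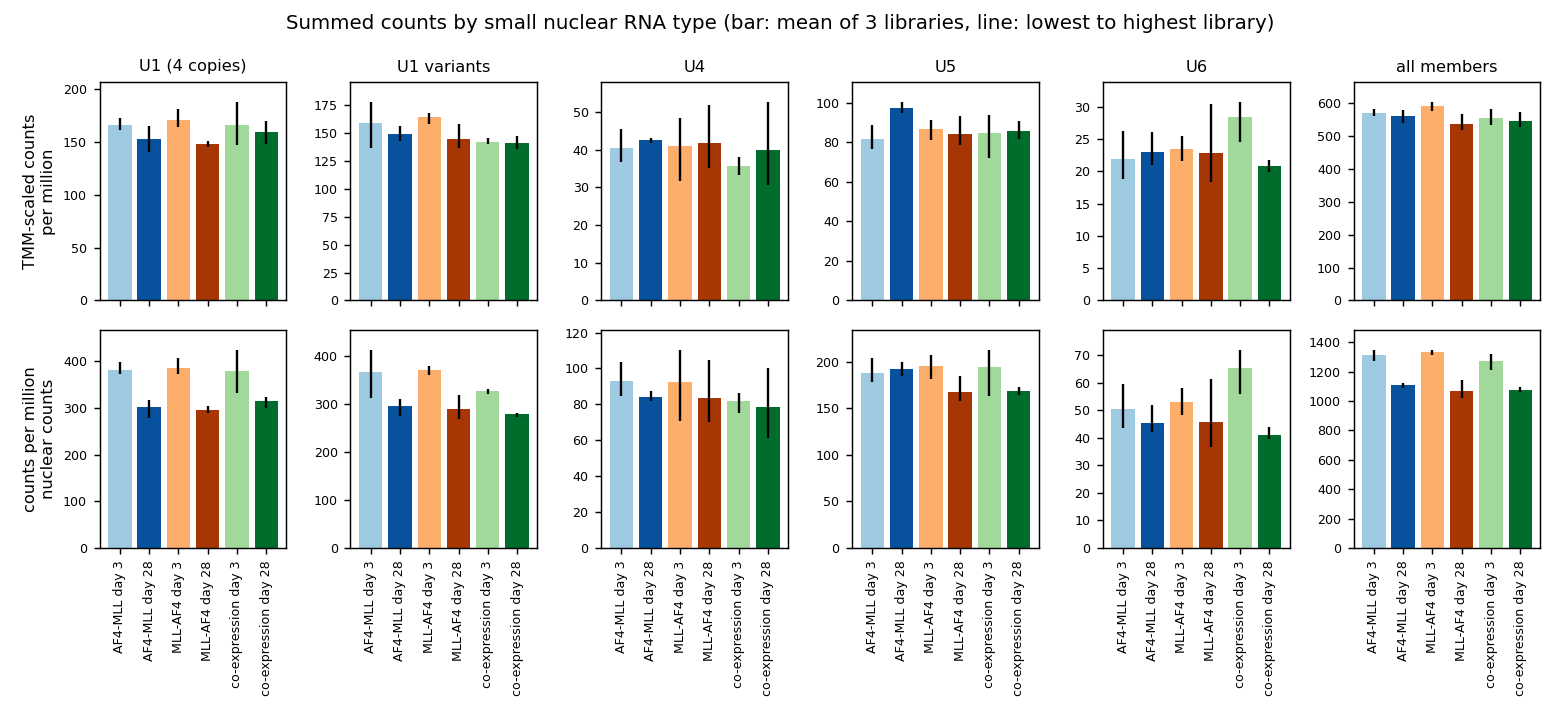
Summed counts of snRNA types (columns) in the 6 groups as TMM-scaled CPM (upper row) and on the nuclear scale (lower row). Bars are means of 3 libraries and lines run from the lowest to the highest library. On the nuclear scale all members lie at 1274 to 1336 on day 3 and 1069 to 1109 on day 28.

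Genes whose products make and use snRNAs were read from lists. Their values are ATAC-seq counts over each gene, not levels of RNA or protein. Of the 13 list tests called below, pseudogenes included, DESeq2 gave an adjusted p in 8 and called 2, both for ELL2, and with no low-count filter 6 were called. These alternatives and the fits without single libraries were chosen for the lists after seeing the data. Over all genes and the 12 contrasts together, 0.899% of tests were called and 10.7% had an unadjusted p under 0.05. The promoter recognition list holds SNAPc subunits, TBP, BRF2, BDP1 and the activators POU2F1, ZNF143 and SP1. Of its 11 genes 0 were called by edgeR in 12 contrasts and 0 by DESeq2, with 18 of 132 tests at an unadjusted p under 0.05 (10.7% over all genes). The smallest of these were SNAPC1, log2 1.102, SE 0.35, adjusted p = 0.0768 in co-expression against MLL-AF4 cells on day 3, and SNAPC4, log2 0.68, SE 0.23, adjusted p = 0.327 in AF4-MLL against MLL-AF4 cells on day 28. The list's median ran from -0.18 to 0.25 over the contrasts, where the median of all genes stayed within 0.01 of 0.

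Of 10 genes of the little elongation complex and its ELL partners, 2 were called, in 4 of 120 tests, in comparisons where 2.87%, 1.81%, 1.28% and 1.69% of all genes were called. ELL2 encodes an elongation factor that acts in both elongation complexes. Its level fell in MLL-AF4 cells from 63.9 ± 7.62 TMM-scaled CPM on day 3 to 38.3 ± 2.72 on day 28 (log2 -0.74, SE 0.17, adjusted p = 0.00331). It was also lower in co-expression cells on day 3, at 37.8 ± 6.35, than in MLL-AF4 cells (log2 -0.75, SE 0.17, adjusted p = 0.00376). DESeq2 also called both (adjusted p = 0.0151 and 0.0374), and each call held in 17 of 18 fits that left out 1 library and was lost without MLL-AF4 replicate 1 of day 3. These comparisons share the MLL-AF4 libraries of day 3. ELL3, the gene of a relative of ELL, had a higher level in co-expression cells than in AF4-MLL cells. On day 3 the levels were 37.8 ± 6.56 against 24.3 ± 6.40 (log2 0.74, SE 0.20, adjusted p = 0.0265). On day 28 they were 37.7 ± 6.91 against 21.1 ± 3.59 (log2 0.82, SE 0.19, adjusted p = 0.00550). ELL3 lies on chromosome 15, where the tested genes had medians of 0.30 and 0.29 in these comparisons. The ELL3 calls held in 15 and 16 of 18 fits without 1 library, the day 3 value was 0.46 without AF4-MLL replicate 1 of that day, and DESeq2 made neither (adjusted p = 0.227 and 0.0974). The other 8 genes, among them ICE1, ICE2, ZC3H8 and ELL, were not called. The median of this list ran from -0.21 to 0.33.

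The Integrator complex cuts the end of snRNA transcripts. Of its 14 genes with a row, INTS2 was called, in 2 of 168 tests, which share the MLL-AF4 libraries of day 3 (2.87% and 1.81% of all genes called), and the list's median ran from -0.14 to 0.13. INTS2 rose in MLL-AF4 cells from 13.4 ± 2.67 on day 3 to 26.7 ± 5.75 on day 28 (log2 0.95, SE 0.28, adjusted p = 0.0345). It was also higher in co-expression cells on day 3, at 26.4 ± 2.73 (log2 0.98, SE 0.28, adjusted p = 0.0324). Its chromosome 17 had medians of 0.25 and 0.10 in these comparisons. Each call held in 13 of 18 fits without 1 library, and DESeq2 made neither (adjusted p = 0.0840 and 0.181).

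Of 24 genes for snRNA export and assembly of the Sm ring, PRMT5 was the only one called, in 1 of 288 tests (2.87% of all genes called in that comparison). This gene encodes an enzyme that methylates Sm proteins. Its level fell in MLL-AF4 cells from 55.5 ± 5.97 on day 3 to 37.4 ± 5.53 on day 28 (log2 -0.59, SE 0.18, adjusted p = 0.0414). This call held in 13 of 18 fits without 1 library and was not made by DESeq2 (adjusted p = 0.0935) or with the loess offset. The median of the list ran from -0.11 to 0.07. Of 32 genes for proteins of single particles, 2 were called, in 2 of 384 tests (1.28% and 2.87% of all genes called in these comparisons). PRPF8 encodes a protein at the core of the U5 particle. Its level was lower in co-expression cells (18.2 ± 1.09) than in AF4-MLL cells (32.1 ± 3.23) on day 3 (log2 -0.79, SE 0.22, adjusted p = 0.0358). The gene ZNF473 encodes a protein of the U7 particle. In MLL-AF4 cells its level rose from 9.73 ± 3.31 on day 3 to 21.6 ± 5.62 on day 28 (log2 1.104, SE 0.32, adjusted p = 0.0320). The tested genes of its chromosome 19 had a median of 0.28 there. The PRPF8 call held in 12 and the ZNF473 call in 15 of 18 fits without 1 library. DESeq2 did not call PRPF8 (adjusted p = 0.160) and gave ZNF473 no adjusted p. This list's median ran from -0.21 to 0.16.

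Of the other short RNA genes with an upstream promoter, RNY1 and RNY4, Y RNA genes with 155 and 115 counts, were tested, and 0 of 24 tests were called by edgeR, and 0 by DESeq2 where it gave an adjusted p, with 2 at an unadjusted p under 0.05, both for RNY4. RNY4 differed by log2 1.22, SE 0.56, adjusted p = 0.273 in co-expression against MLL-AF4 cells on day 3 and by log2 1.14, SE 0.54, adjusted p = 0.568 in AF4-MLL against MLL-AF4 cells on day 28. RNY3 and RMRP had 90 counts and 1 count and were not tested, and RN7SK, RPPH1 and RNY5 have no row under these symbols.

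Only 9 of the 1510 U pseudogenes passed the filter, and 2 of them were called, in 4 of 108 tests, in contrasts where 2.87%, 1.81%, 0.317% and 1.69% of all genes were called. RNU5A-8P, a U5 pseudogene on chromosome 1, fell in MLL-AF4 cells from 15.8 ± 1.75 on day 3 to 4.77 ± 2.02 on day 28 (log2 -1.68, SE 0.40, adjusted p = 0.00400). It was lower in co-expression cells on day 3, at 5.86 ± 1.41, than in MLL-AF4 cells (log2 -1.42, SE 0.38, adjusted p = 0.0221). The change over days differed between AF4-MLL and MLL-AF4 cells (log2 2.295, SE 0.54, adjusted p = 0.0181). RNU1-85P, a U1 pseudogene, had a lower level on day 28 in co-expression cells than in AF4-MLL cells, 8.103 ± 2.17 against 19.2 ± 3.67 (log2 -1.27, SE 0.29, adjusted p = 0.00436). The U5 genes RNU5A-1 to RNU5F-1 had log2 values from -0.37 to 0.49 between days in MLL-AF4 cells. The RNU5A-8P calls held in 18, 13 and 14 of 18 fits without 1 library, in the order given, and the RNU1-85P call in 16. DESeq2 gave these 4 tests no adjusted p. Counts of these pseudogenes can include reads of other copies, whose part was not tested. Over the contrasts the median of the 9 pseudogenes ran from -0.44 to 0.13.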

How the data were processed

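ATAC-seq reads from 18 HEK293T libraries were counted per gene by the authors. The deposited values are raw counts, with no normalization. The submitters' processing notes name bcl2fastq, Bowtie2, HTSeq and GRCh38. Versions, the counted region, and the handling of duplicates, shared reads and the transposase offset are not given in the sources used here. Genes passing filterByExpr (minimum count 10, minimum total 15) were tested, 17660 in all, with TMM scaling. The test was the quasi-likelihood test of edgeR 4.0.16 (R 4.3.3, limma 3.58.1) over 6 groups. The design left 12 residual degrees of freedom for each gene. Each gene's spread was moderated towards that of the other tested genes, so p-values and intervals rest on more than these 12. Intervals can thus be too narrow for members that scatter more than most genes. Calls had a Benjamini-Hochberg adjusted p under 0.05. DESeq2 1.42.0, other scalings, no filter, a replicate block and fits without each library were alternatives. Scripts were tested on simulated data, for day 28 against day 3 in MLL-AF4 cells. A log2 change of 1 was called in 95.5% of 200 changed genes with mean counts of 50 or more. At mean counts of 15 to 60 it was called in 54.5% of 200, so such a change can be missed at members with few counts. Genes named library by library were RNU2-1, RNU1-1 and RNU1-4, the members with most counts. RNU4-1 and RNU4ATAC were added after their values were seen, for their small p-values. List genes were those called or, in lists with none, with the smallest p-values. Members and lists were chosen with earlier results of these data known. The labels call replicates biological without naming separate cultures, so p-values measure the spread between these libraries. That spread was pooled for the most part over genes. Positions and lengths are those of RefSeq GRCh38.p14. A marker gene of the cell type check is not reported here.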

Additional observations from a re-analysis of the deposited data

How the results depend on the processing

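With RLE size factors, a loess offset, no mitochondrial genes, no filter or a replicate block, 0 members were called in any of 12 contrasts, DESeq2 called 0 of 154 tests with an adjusted p, and in 18 fits that each left out 1 library all 216 counts were 0. Library size alone called 21, 19 and 20 members between days (AF4-MLL, then MLL-AF4, then co-expression), all lower. Of 308 values of named members under other settings, 10 changed sign. Under library size alone these were RNU4-1 (-0.19) and RNU1-4 (-0.84) between days in co-expression cells and, in co-expression against MLL-AF4 cells on day 3, RNU2-1 (0.083), RNU1-1 (0.10) and RNU1-4 (0.032). With no filter the same comparison gave 0.082, 0.092 and 0.026. The loess offset gave 0.017 for RNU2-1 between days in MLL-AF4 cells, and the replicate block -0.018 for RNU1-4 in AF4-MLL against MLL-AF4 cells on day 3. The cause was not tested. Same-numbered libraries did not deviate together (r -0.09 to 0.04 over 45 pairs), so the numbers were not taken as pairs.

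Leaving out 1 library, the log2 value of RNU2-1 ran from -0.22 to 0.13 between days in MLL-AF4 cells, from -0.082 to 0.27 in AF4-MLL against MLL-AF4 cells on day 3 and from -0.15 to 0.071 on day 28, from -0.17 to 0.18 in co-expression against MLL-AF4 cells on day 3 and from -0.17 to 0.022 on day 28, and from -0.16 to 0.074 in co-expression against AF4-MLL cells on day 28. RNU1-1 ran from -0.16 to 0.0903 in co-expression against MLL-AF4 cells on day 3 and from -0.089 to 0.027 in co-expression against AF4-MLL cells on day 28. RNU1-4 ran from -0.14 to 0.17 in AF4-MLL against MLL-AF4 cells on day 3 and from -0.011 to 0.23 on day 28, and from -0.25 to 0.061 in co-expression against MLL-AF4 cells on day 3. Of the 13 calls in the lists, 13 held with RLE size factors, without mitochondrial genes and under the replicate block, 12 with the loess offset, 6 with no filter, 5 under library size alone and 2 of 8 in DESeq2, all chosen after seeing the data, and 0 changed sign. Depth limits the members with few counts, and the 11 untested genes most.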
